A study of Mus musculus with 35 samples.

Results

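The genes described here code for 9 proteins of focal adhesion kinase signalling. They are the kinases Ptk2 and Ptk2b, the protein named integrin-linked kinase (Ilk), and the scaffolds Bcar1 and Nedd9. The others are the kindlins Fermt2 and Fermt3, the membrane protein Cav1 and the actin regulator Vasp. All 9 were chosen by name. A peak was counted for a gene where the Gene Name column of a deposited list gave that symbol. That column names the gene with the nearest transcription start site (TSS). The 9 genes are 9 of 23852 gene names in the lists and hold 1172 of 1212511 peaks. Chromatin immunoprecipitation with sequencing was done on mouse stromal-adherent pre-B cell progenitors at passages 3 to 8, from IKDN CD2 Cre mice or from WT mice. IKDN is a dominant-negative allele of Ikaros, a zinc finger regulator of lymphoid genes, and the Cre is driven by CD2, whose promoter is active in lymphoid cells. The WT cells are not labelled as carrying a Cre. 33 of the 35 libraries have a peak list, 17 IKDN and 16 WT, and the other 2 are inputs.

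15 targets were mapped in both genotypes, with 1 library for each genotype and target. They were the histone marks H3K27ac (active promoters and enhancers), H3K4me1 and H3K4me2 (regulatory regions), H3K4me3 (promoters), H3K36me3 (transcribed gene bodies) and H3K27me3 (Polycomb-repressed chromatin), RNA polymerase II (RNAPII) and MED1, a subunit of Mediator, along with 7 DNA-binding factors. These were TEAD1, ETS1, Aiolos, IRF4 and the B cell regulators EBF1, PAX5 and E2A. The sample titles name the polymerase target RpIIS5, a phosphorylated form, so RNAPII below stands for this form and not for total polymerase. The lists of LHX2 and LMO2 come from IKDN cells alone, and that of Ikaros from WT cells alone, so these 3 say nothing of a difference between genotypes. With 1 library there is no replicate spread, no test and no p-value, and every difference below is between 2 libraries. A mark carried by more cells and a mark that is stronger in each cell cannot be told apart in such bulk lists.

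Focal adhesion kinase, the product of Ptk2, is recruited to clustered integrins, phosphorylates itself and binds Src, and the pair phosphorylates the Cas scaffolds, which pass the signal to Crk, Dock1 and Rac. Kindlins bind integrin tails together with talin and switch integrins to their active state, while integrin-linked kinase joins the same tails to actin through parvins. Pre-B cells use integrins to hold on to bone marrow stroma, and loss of Ikaros function is known to make them adhere to it.

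The lists held between 2783 peaks (IKDN Aiolos) and 86562 peaks (IKDN PAX5), and read depth is not given in them. MED1 had 24219 peaks in IKDN cells and 12070 in WT cells, ETS1 35490 and 22482, and TEAD1 47735 and 33520, so peak numbers of these targets start from a longer IKDN list. The antibody labels differ between IKDN and WT libraries for E2A, ETS1 and H3K4me3. The labels also repeat catalogue numbers across targets. One stands for LHX2 and ETS1 in IKDN cells and for E2A in WT cells, another for E2A in IKDN cells and for IRF4 and PAX5 in both genotypes, and another for H3K4me3 in IKDN cells and for H3K4me1 in both. If these labels are right, lists with the same number may hold 1 antibody under several names. Elements below may then count it more than once. This concerns ETS1 with LHX2 in IKDN cells, IRF4 with PAX5 in either genotype, and E2A with IRF4 or PAX5 in IKDN cells. What the labels did to the values was not tested. The WT E2A list is incomplete on chromosomes 2 to 9 and X, so E2A was not compared at Bcar1, Ilk, Cav1 and Vasp. Of 11 B lineage markers, 8 had an H3K27ac peak in IKDN cells (123.7 kb in sum) and 10 in WT cells (195.1 kb). Cd79a, Vpreb1 and Rag1 were at 0 in IKDN cells, and Vpreb1 in WT cells. Cd79a held 25.8 kb of the WT sum, and a 0 here means only that no peak bore the name. H3K36me3 differed less, at 10 of these 11 in IKDN cells (273.9 kb) and at 9 in WT cells (282.2 kb). H3K27me3 was at 1 in IKDN cells (9.97 kb) and at 2 in WT cells (4.66 kb). Of 11 stromal fibroblast markers, 6 had H3K27ac in IKDN cells (33.7 kb) and 9 in WT cells (32.0 kb), with Col1a2 and Dcn at 0 in both. H3K36me3 was at 3 of these 11 in IKDN cells (5.13 kb) and at 1 in WT cells (0.637 kb), with Col1a1, Col1a2, Pdgfra and Pdgfrb at 0 in both. H3K27me3 over the same markers covered 421.1 kb at 8 genes in IKDN and 94.5 kb at 9 in WT cells. Cxcl12 alone held 250.4 kb of the IKDN and 21.1 kb of the WT sum, and Pdgfrb and Mmp2 went the other way. Below, Bcar1 and Cav1 share the direction of the sum, Ptk2 goes the other way and Fermt2 is near equal. The part of other cell types in the results below was not tested.

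Promoter sequences of 5 of the genes are shown because their windows carry the contrast described below. The windows of Bcar1, Cav1 and Fermt2 lie under H3K27me3 in both genotypes, and those of Fermt3 and Vasp in neither. H3K27ac and RNAPII peaks also lie over the Fermt2 window in both genotypes. Each run is the 250 bases before a RefSeq start on GRCm38.p6, 5′ to 3′ on the strand of the gene, and capitals mark matches to the motifs named after them. They lie at chr8:111743850-111744099 on the minus strand (Bcar1), chr14:45530066-45530315 on the minus strand (Fermt2), chr19:7019470-7019719 on the minus strand (Fermt3), chr6:17306085-17306334 on the plus strand (Cav1, upstream start) and chr7:19271855-19272104 on the minus strand (Vasp).
Bcar1: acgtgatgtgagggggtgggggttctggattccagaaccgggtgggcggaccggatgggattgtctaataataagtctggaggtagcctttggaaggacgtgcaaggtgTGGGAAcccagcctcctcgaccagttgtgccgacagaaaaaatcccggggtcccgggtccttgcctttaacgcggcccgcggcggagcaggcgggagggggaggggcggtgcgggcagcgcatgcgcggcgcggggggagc
Fermt2: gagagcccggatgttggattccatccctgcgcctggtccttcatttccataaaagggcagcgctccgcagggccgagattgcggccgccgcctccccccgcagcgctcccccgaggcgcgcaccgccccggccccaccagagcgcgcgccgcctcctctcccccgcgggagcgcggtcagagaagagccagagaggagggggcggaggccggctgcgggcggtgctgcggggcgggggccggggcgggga
Fermt3: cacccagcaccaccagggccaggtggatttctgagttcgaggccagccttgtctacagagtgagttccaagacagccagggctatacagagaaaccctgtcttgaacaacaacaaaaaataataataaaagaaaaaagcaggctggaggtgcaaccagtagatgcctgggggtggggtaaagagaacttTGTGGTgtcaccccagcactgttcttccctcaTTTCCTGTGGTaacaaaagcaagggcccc
Cav1: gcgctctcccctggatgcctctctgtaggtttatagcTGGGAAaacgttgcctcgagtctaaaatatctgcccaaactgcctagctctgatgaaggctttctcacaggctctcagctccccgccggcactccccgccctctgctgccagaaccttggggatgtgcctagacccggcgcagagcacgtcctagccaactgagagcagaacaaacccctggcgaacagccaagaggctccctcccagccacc
Vasp: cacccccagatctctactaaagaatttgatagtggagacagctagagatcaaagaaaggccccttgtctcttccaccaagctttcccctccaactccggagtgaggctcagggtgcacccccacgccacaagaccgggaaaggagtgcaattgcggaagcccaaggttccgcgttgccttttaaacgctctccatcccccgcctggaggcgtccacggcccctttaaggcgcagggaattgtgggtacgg
Letters searched on both strands were GGAATG (the TEAD motif), TGGGAA (Ikaros), AGGAAG and AGGAAA (ETS), TGTGGT (RUNX), CAGCTG (E2A), the palindrome of EBF1, TAATTA (LHX2) and CCAAT. Of 32851 RefSeq promoter windows, 12.6% hold the TEAD letters, 21.6% the Ikaros letters, 29.5% and 25.4% the ETS letters, 14.0% the RUNX letters, 13% the E2A letters, 0.779% the EBF1 palindrome, 4.84% the LHX2 letters and 33.8% CCAAT. Fermt3 held 3 matches, namely TGTGGT at -61 and at -24 and TTTCCT, the reverse complement of an ETS form, at -29, which overlaps the second TGTGGT by 1 base. TGGGAA was found at -213 in the Cav1 window and at -141 in the Bcar1 window. The Fermt2 and Vasp windows held none of these letters. The Fermt2 window is 76% G and C, against 50% in Fermt3. Of the other genes, Ilk has windows at both its starts, Bcar1 and Cav1 each have one at a second start, and Nedd9 has one at its internal start. Ptk2 and Ptk2b were not matched.

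The 9 genes differed widely in how many peaks bore their name. Nedd9 held 578 of the 1172 (49.3%), Ptk2b 253, Ptk2 118, Vasp 56, Bcar1 51, Fermt2 and Fermt3 42 each, Cav1 28 and Ilk 4. Sums over the 9 genes therefore mostly describe Nedd9, and each gene is given on its own below. A gene was called higher or lower in IKDN when its covered length differed by at least 1.5 times and at least 1 kb.

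**Figure D1:**
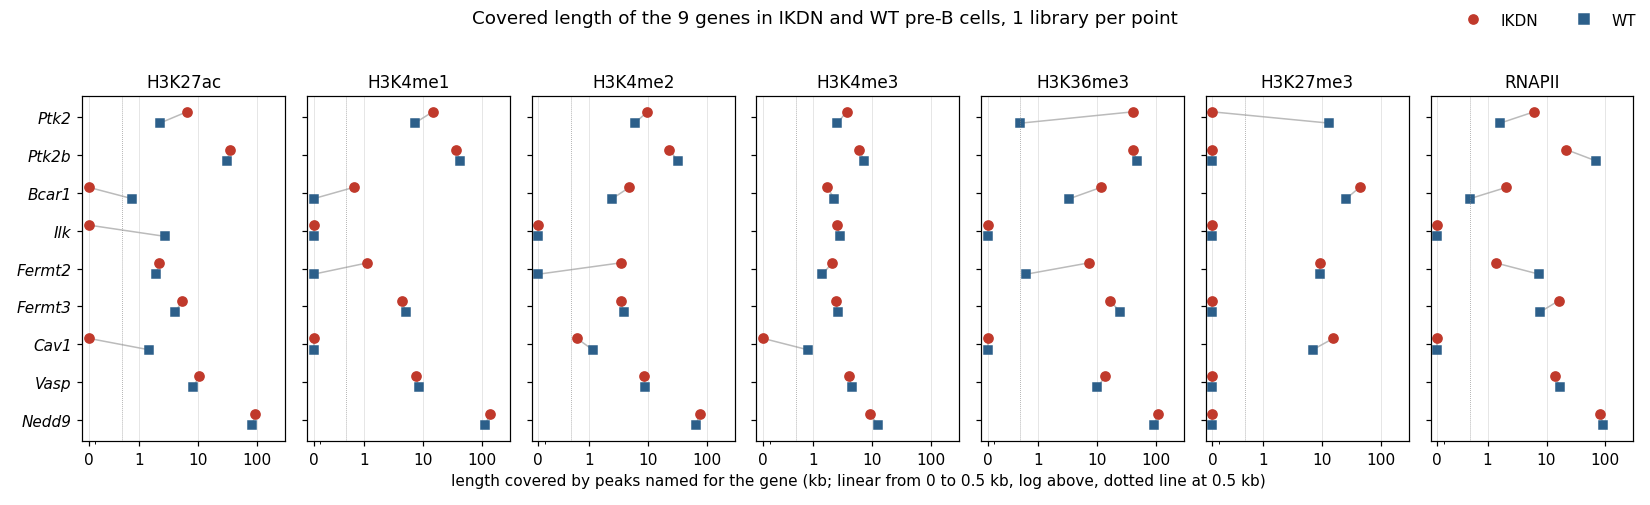
Length covered by peaks named for each gene (kb, log scale above 0.5 kb) for 7 broad targets, with IKDN as red circles and WT as blue squares, 1 library per point. At Ptk2 the points lie far apart for H3K36me3 (40.4 kb in IKDN and 0.5 kb in WT cells) and H3K27me3 (0 and 13.5 kb), and at Ptk2b for RNAPII (21.6 and 69.5 kb).

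The share over all genes, given beside each count, is over genes with a peak of that target in either genotype, so the members with such a peak are counted too. H3K27ac had a peak at all 9 genes and was called higher at 1 (Ptk2), where 21.9% of all genes were called higher, and lower at 2 (Cav1 and Ilk), where 16.8% were. H3K4me1 was called higher at 2 of 7 (Ptk2 and Fermt2, against 21.6% of all genes) and lower at 0 (against 20%). H3K4me2 was called higher at 3 of 8 (Ptk2, Bcar1 and Fermt2, against 15.1%) and lower at 0 (against 12.9%). H3K4me3 was called at none of the 9, where 5.14% of all genes were called higher and 10.9% lower. H3K36me3 was called higher at 3 of 7 (Ptk2, Bcar1 and Fermt2, against 30.4%) and lower at 1 (Fermt3, against 10.1%). H3K27me3 was called higher at 2 of 4 (Bcar1 and Cav1, against 29.6%) and lower at 1 (Ptk2, against 33.3%). RNAPII was called higher at 3 of 7 (Ptk2, Bcar1 and Fermt3, against 27.2%) and lower at 2 (Ptk2b and Fermt2, against 24.8%). With 4 to 9 genes behind each count and no test, nothing is read from these counts about the 9 genes as a group. Single genes moved in different directions.

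Ptk2 codes for focal adhesion kinase (chr15:73205102-73423820, minus strand). By peaks named for it, it carried more of every active mark in IKDN cells, and no called H3K27me3 peak there. H3K27me3 covered 0 kb in IKDN and 13.5 kb in WT cells, where 6 peaks lay between the TSS and -30.9 kb (negative positions are upstream). The longest WT blocks were 5.37 kb at -19.3 kb and 3.92 kb at -8.88 kb, and another of 2.56 kb lay over the TSS at 0.62 kb. H3K27ac covered 6.40 kb in 4 peaks in IKDN cells and 2.22 kb in 2 peaks in WT cells. Its promoter peak was among the top 9.15% of the IKDN list by score and the top 40.5% of the WT list. The H3K4me3 promoter peak was 3.02 kb long and in the top 7.47% in IKDN cells, against 2.54 kb and the top 34.8% in WT cells. H3K4me1 covered 14.6 kb in IKDN and 7.25 kb in WT cells, H3K4me2 9.94 and 5.99 kb, and RNAPII 6.13 and 1.63 kb. Over the annotated body alone, under any name, H3K4me1 went the other way. It covered 2.555 kb in IKDN and 4.277 kb in WT cells, where 3 peaks bore the name Mir151. MED1 had 1 promoter peak in each, of 1.75 kb in IKDN and 0.626 kb in WT cells.

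The H3K36me3 list gave the widest contrast at Ptk2. 18 IKDN peaks named for the gene ran from 10.9 to 115.6 kb downstream of the TSS and covered 40.4 kb, against 1 peak of 0.5 kb in WT cells. That difference was the 167th largest gain among 12943 genes with an H3K36me3 peak. The far part of the gene lies nearer to the TSS of Ago2, the neighbour, and 15 more IKDN peaks inside Ptk2 bear the name Ago2. Over the annotated gene body of 218.7 kb, whatever the name, H3K36me3 covered 120.0 kb (54.9%) in IKDN and 1 kb (0.457%) in WT cells. RNAPII had 5 named peaks in the body in IKDN cells, between 5.58 and 105.9 kb, while the single WT peak lay at the TSS. These 5 peaks were short (500 to 710 bp) and weak, in the top 62.4% to 85.2% of the IKDN list.

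**Figure D2:**
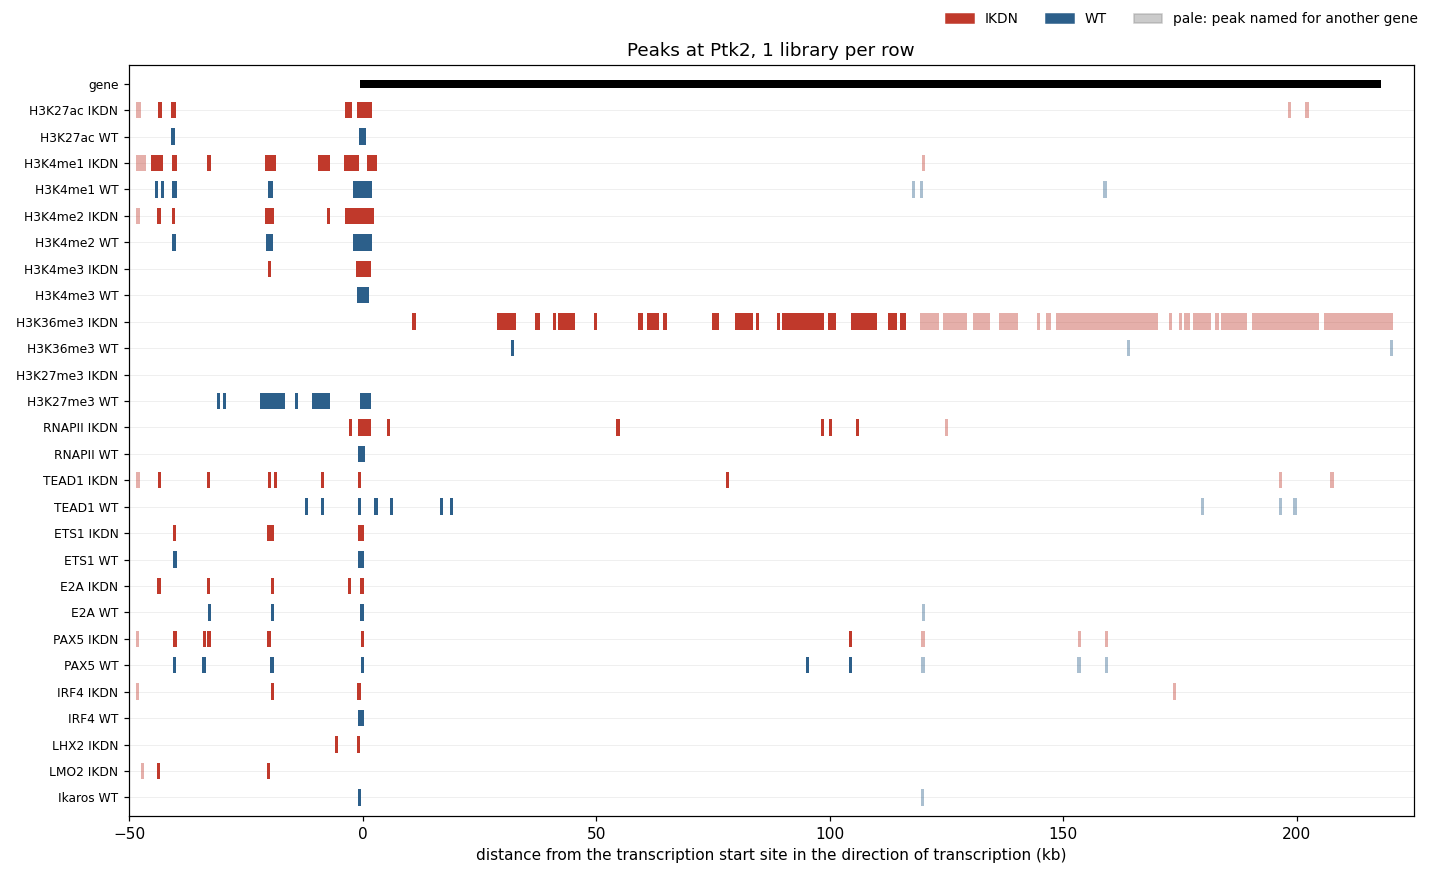
Peaks at Ptk2 by distance from the TSS (kb, in the direction of transcription), 1 library per row, IKDN red above WT blue, pale where the peak is named for a neighbouring gene. H3K36me3 fills 54.9% of the gene body in IKDN and 0.457% in WT cells, and the 6 H3K27me3 peaks upstream and at the TSS are in the WT row alone.

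Factor peaks at Ptk2 fell into 7 elements, merged regions bound in at least 3 factor lists, at -0.1, -0.7, -19.3, -20, -33, -40.2 and -43.6 kb. The element at -0.7 kb held ETS1, IRF4 and TEAD1 in both genotypes, with LHX2 in IKDN and Ikaros in WT cells. Its TEAD1 peak was in the top 8.21% of the IKDN list and the top 28.1% of the WT list. The elements at -20 kb (ETS1, LMO2, PAX5 and TEAD1) and -43.6 kb (E2A, LMO2 and TEAD1) had no factor peak in WT cells. The first of these lies in the 5.37 kb WT H3K27me3 block. So does the element at -19.3 kb beside it, which held E2A, EBF1 and PAX5 in WT cells. At -20 kb the IKDN peaks of LMO2 (top 95.7%), TEAD1 (top 80.4%) and ETS1 (top 73.9%) ranked low, and that of PAX5 higher (top 26.1%). TEAD1, the DNA-binding partner of YAP, had 7 peaks in each genotype, of which 2 of the IKDN peaks overlapped a WT peak, where 39.1% of all IKDN TEAD1 peaks did. The other IKDN peaks lay at 78.2, -18.6, -19.9, -33.0 and -43.6 kb, and the other WT peaks at -12.0 kb and at 4 sites between 2.88 and 19.04 kb inside the gene. E2A and ETS1 each had 5 peaks at Ptk2 in IKDN and 3 in WT cells, and PAX5 had 6 in both.

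Ptk2b, which codes for the related kinase Pyk2 (chr14:66153257-66281100, minus strand), was active in both genotypes. It has a start at -67.5 kb relative to the downstream start used for its positions. H3K27ac covered 34.4 kb in IKDN and 31.0 kb in WT cells, H3K4me1 36.9 and 42.5 kb, and H3K4me2 23.4 and 32.3 kb. No peak of H3K27me3 was named for it in either. The strongest H3K4me3 peak lay at the upstream start, at -66.7 kb in IKDN (top 14.7%) and -66.6 kb in WT cells (top 10.4%). RNAPII covered 21.6 kb in 13 peaks in IKDN cells and 69.5 kb in 16 peaks in WT cells, the 91st largest loss of 15305 genes. Over the annotated body, under any name, it covered 27.1 kb (21.2%) in IKDN and 97.3 kb (76.1%) in WT cells. The longest RNAPII peak was 8.76 kb in IKDN cells and 23.4 kb in WT cells. H3K36me3 over the annotated body differed less, with 62.8 kb (49.1%) in IKDN and 77.6 kb (60.7%) in WT cells. MED1 went the other way in number, with 9 peaks and 11.1 kb in IKDN against 3 peaks and 6.95 kb in WT cells. Ptk2b held 11 elements, all with factor peaks in both genotypes. 9 of them held a WT Ikaros peak, and 6 of those also an IKDN LHX2 peak.

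Ilk, which codes for integrin-linked kinase (chr7:105736590-105742925, plus strand), shares its start region with Rrp8, and most peaks over it bear another name. Only 4 peaks were named Ilk: H3K4me3 in both genotypes (2.51 kb in IKDN and 2.79 kb in WT cells), E2A in IKDN cells and H3K27ac in WT cells (2.77 kb). The lower H3K27ac call of Ilk rests on this naming. The IKDN peak that covers its start is 7.21 kb long, in the top 2.28% of its list, and is named Rrp8. Over the gene and 10 kb on each side, H3K27ac covered 11.1 kb in IKDN and 6.21 kb in WT cells, which is a call in the other direction. MED1 over the same span covered 8.24 kb in IKDN and 1.45 kb in WT cells, RNAPII 16.4 and 12.3 kb, and H3K36me3 14.4 and 13.7 kb. This span takes in peaks named for the neighbours Rrp8, Taf10 and Tpp1. Over the annotated body alone, RNAPII covered 99.98% in both genotypes, and H3K36me3 3.04 kb in IKDN and 3.52 kb in WT cells. H3K27ac covered 5.74 and 1.945 kb there, and MED1 4.59 and 0.254 kb. A peak lay over the promoter window in 9 targets that could be compared, in both genotypes, including ETS1 in the top 3.77% of the IKDN and the top 7.38% of the WT list.

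Bcar1, which codes for the scaffold p130Cas (chr8:111710474-111743849, minus strand), was covered by the Polycomb mark in both genotypes, and more so in IKDN cells. H3K27me3 covered 43.9 kb in IKDN cells, of which 43.2 kb is 1 unbroken peak in the top 0.183% of the list, and 26.0 kb in 7 peaks in WT cells, the longest 13.3 kb. Of the annotated body, 96.5% was covered in IKDN and 66.3% in WT cells. H3K27ac was at 0 in IKDN cells and had 1 WT peak of 0.755 kb at 0.36 kb from the TSS, in the top 72.5% of its list. H3K4me3 covered 1.70 kb in IKDN and 2.27 kb in WT cells, at the TSS printed above and at a second start 11.7 kb downstream. H3K4me2 covered 4.90 and 2.50 kb.

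The higher H3K36me3 and RNAPII calls of Bcar1 do not lie on the gene. The 9 IKDN and 3 WT H3K36me3 peaks with its name have their centres between -50.5 and -22.8 kb, and the RNAPII peaks between -22.4 and -20.6 kb, in and beside the neighbour Cfdp1. Over the gene and 10 kb on each side both targets were at 0 in both genotypes. TEAD1 had 1 peak at Bcar1 in IKDN and 3 in WT cells. The shared one, 17.5 kb into the gene, was in the top 61.2% of the IKDN and the top 7.58% of the WT list, and the WT peak at -4.04 kb (top 14.9%) had no IKDN counterpart. EBF1 had 5 peaks in IKDN and 3 in WT cells, and PAX5 3 and 1. The EBF1 peaks at -36.1 and -50.6 kb in IKDN cells and at -50.6 kb in WT cells also lie in or beside Cfdp1. Inside the annotated body EBF1 had 2 peaks in each genotype. Over the gene and 10 kb on each side, under any name, it had 4 in IKDN and 2 in WT cells. No Ikaros, LHX2, LMO2, ETS1, IRF4 or MED1 peak bore its name.

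Cav1, which codes for the caveolar coat protein caveolin 1 (chr6:17306335-17341328, plus strand), carried Polycomb over its promoter in both genotypes and had weak active marks in WT cells. H3K27me3 covered 15.7 kb in 10 peaks in IKDN cells and 7.04 kb in 5 peaks in WT cells, and its promoter block was 7.06 and 4.91 kb long. H3K27ac was at 0 in IKDN and at 1.44 kb in WT cells (top 69.2%). H3K4me3 was at 0 in IKDN and at 0.792 kb in WT cells (top 87.0%), and both WT peaks touch the upstream promoter window printed above. The low ranks place them among the weaker peaks of their lists. No H3K36me3, RNAPII or MED1 peak was named Cav1 in either genotype. An element at 77.9 kb, beyond the end of the gene, held IRF4, LHX2, PAX5 and TEAD1 with H3K4me2 in IKDN cells, and no factor peak in WT cells.

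Fermt2, which codes for kindlin 2, the kindlin found in most adherent cells (chr14:45458792-45530310, minus strand), carried H3K4me3 and H3K27me3 on the same promoter in both genotypes. The H3K27me3 block was 8.76 kb in IKDN (top 2.47%) and 8.68 kb in WT cells (top 2.35%). Beside this near equal Polycomb block, H3K4me3 was 2.10 kb long and in the top 22.9% in IKDN cells, against 1.41 kb and the top 68.4% in WT cells. H3K4me2 covered 3.47 kb in IKDN and 0 in WT cells, and H3K4me1 1.14 kb and 0. The promoter also had an H3K27ac peak in both genotypes, of 1.65 kb in IKDN (top 45.3%) and 1.94 kb in WT cells (top 56.2%). H3K36me3 covered 7.27 kb in 7 peaks in IKDN cells, all between 27.1 and 65.5 kb inside the gene, against 0.626 kb in 1 WT peak at the promoter. RNAPII went the other way, with 1.36 kb in 1 promoter peak in IKDN and 7.47 kb in 8 peaks in WT cells that reached 19.8 kb into the gene.

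A promoter element at 0.3 kb held ETS1, IRF4 and PAX5 in IKDN cells only, and MED1 had a peak of 1.03 kb there in IKDN and none in WT cells. TEAD1 had 1 peak in IKDN and 3 in WT cells. The shared peak at 37.9 kb was in the top 66.4% of the IKDN and the top 3.14% of the WT list. The WT peaks at 52.1 and 66.3 kb (top 10.01% and 21.1%) had no IKDN counterpart.

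**Figure D3:**
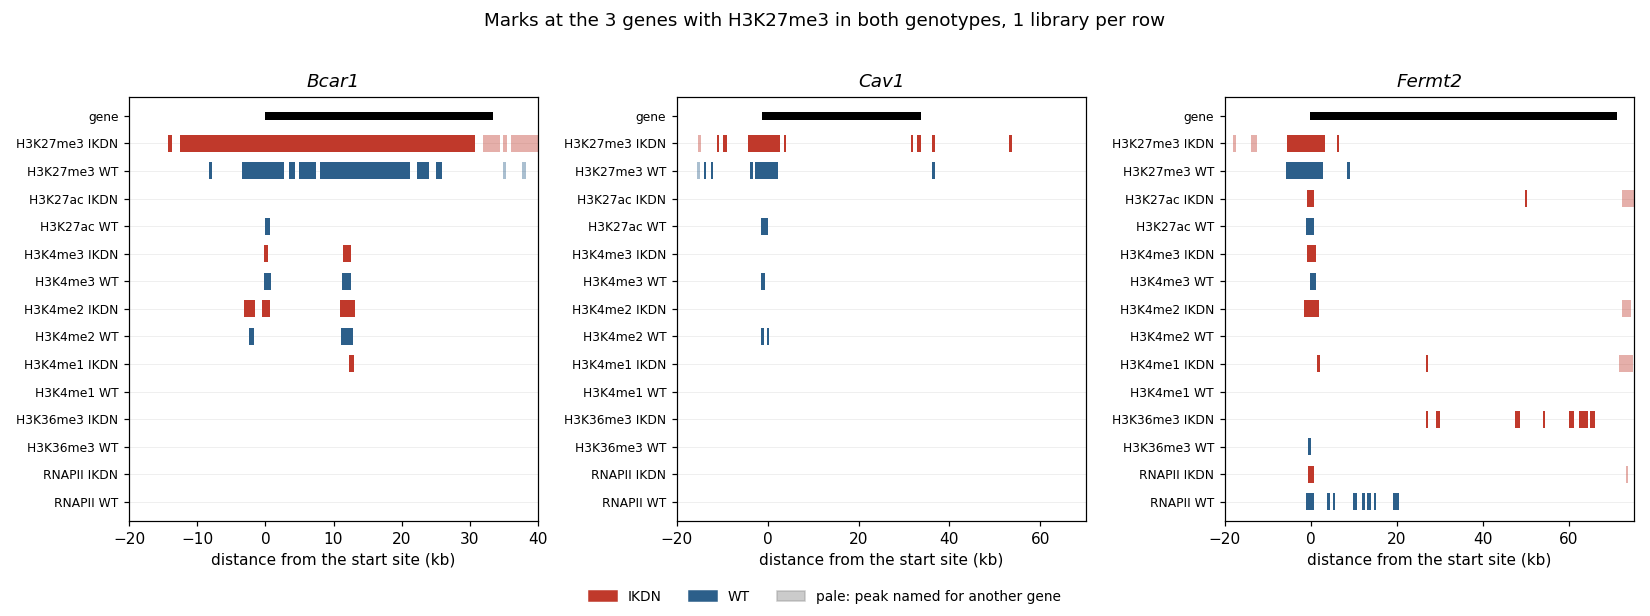
Marks at Bcar1, Cav1 and Fermt2 by distance from the start site (kb), 1 library per row, IKDN red above WT blue, pale where a peak is named for another gene. H3K27me3 is 1 block of 43.2 kb over Bcar1 in IKDN cells and broken in WT cells, longer over Cav1 in IKDN cells (7.06 against 4.91 kb) and near equal over Fermt2 (8.76 and 8.68 kb).

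Fermt3, which codes for kindlin 3, the kindlin of blood cells (chr19:6998958-7019469, minus strand), was active in both genotypes with no H3K27me3 peak. H3K27ac covered 5.40 kb in IKDN and 4.08 kb in WT cells, and the promoter peak was in the top 5.28% and 5.73% of these lists. H3K4me3 covered 2.38 and 2.57 kb, and H3K4me2 3.50 and 3.90 kb. RNAPII covered 16.2 kb in IKDN and 7.80 kb in WT cells, and the promoter peak was 10.1 kb long in IKDN and 2.29 kb in WT cells. Over the annotated body, peaks named for the neighbour Trpt1 included, the gap was narrower, with 13.3 kb in IKDN and 11.7 kb in WT cells. The lower H3K36me3 call (16.4 kb in IKDN and 24.9 kb in WT cells by name) is again set by naming, since 1 IKDN block over the gene bears that neighbour's name. Over the annotated body H3K36me3 covered 18.3 kb (89.1%) in IKDN and 14.6 kb (71.4%) in WT cells. An element at 1.3 kb, in an intron, held EBF1, ETS1, IRF4 and PAX5 in both genotypes, with LHX2, LMO2 and TEAD1 in IKDN and Ikaros and Aiolos in WT cells. ETS1 also peaked at the start in both (top 16.6% in IKDN and 25.8% in WT cells), over the end of the window printed above that holds TTTCCTGTGGT.

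Vasp, which codes for an actin filament elongation factor of focal adhesions (chr7:19256929-19271854, minus strand), had the highest-ranked H3K4me3 peak of the 9 genes in both lists. That peak was 3.94 kb in IKDN (top 2.15%) and 4.06 kb in WT cells (top 3.27%). H3K27ac covered 10.5 kb in 3 peaks in IKDN cells and 8.07 kb in 1 peak in WT cells. H3K36me3 covered 13.9 and 10.04 kb, RNAPII 13.8 and 17.2 kb. MED1 covered 4.45 kb in IKDN cells, with a promoter peak in the top 4.08%, and 0.5 kb in WT cells, in the top 94.1%. TEAD1 peaked over the start in both genotypes (top 19.7% in IKDN and 28.1% in WT cells). A second TEAD1 site at 15.1 kb, at the 3′ end, was in the top 1.66% of the IKDN and the top 29.9% of the WT list. That site also held ETS1 and IRF4 in IKDN cells only, and LMO2 in the IKDN and Ikaros in the WT list. A 1.97 kb H3K27ac peak lay over its TEAD1 peak in IKDN cells only. ETS1 had 3 peaks in IKDN and 1 in WT cells with no overlap between genotypes, where 47.2% of all IKDN ETS1 peaks overlapped a WT peak. IRF4 had 2 peaks in IKDN and 0 in WT cells.

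Nedd9, which codes for the Cas scaffold HEF1, known for its role in lymphocyte adhesion and migration (chr13:41309916-41487362, minus strand), carried by far the most regulatory chromatin of the 9. H3K27ac covered 93.9 kb in 23 peaks in IKDN cells and 81.8 kb in 28 peaks in WT cells. H3K4me1 covered 139.4 and 112.6 kb, H3K4me2 76.9 and 65.6 kb, and H3K36me3 109.2 and 91.8 kb. H3K4me3 went the other way with 9.07 kb in IKDN and 12.4 kb in WT cells, as did RNAPII with 81.9 kb in 18 peaks and 92.0 kb in 29 peaks. None of these differences reached 1.5 times. H3K27me3 was at 0 in both. The strongest H3K4me3 peak lay not at the upstream start but at the internal start, at 128.4 kb, where it was 4.68 kb long in IKDN (top 2.85%) and 4.84 kb in WT cells (top 7.19%). At the upstream start the peaks were in the top 52.5% of the IKDN and the top 48.3% of the WT list. The longest H3K27ac block, 21.9 kb centred at 150.3 kb, was in the top 0.623% of the IKDN list, and in WT cells the longest was 12.1 kb at 155.2 kb (top 5.78%). RNAPII formed 1 block of 54.9 kb from the internal start to past the end of the gene in IKDN cells and blocks of 45.6 and 11.3 kb in WT cells.

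Nedd9 held 30 of the 58 elements of the 9 genes. 27 of the 30 had factor peaks in both genotypes and 3 in IKDN cells only. WT Ikaros was in 21, IKDN LHX2 in 24, and 17 held both. Several IKDN lists are longer than their WT lists and no share over all genes is at hand. Nothing is therefore read from these counts about Nedd9. LHX2, LMO2 and TEAD1 came together in 11 elements in IKDN cells. The element at 46.1 kb held E2A, EBF1, ETS1, IRF4, LHX2, LMO2, PAX5 and TEAD1 in IKDN cells and no factor in WT cells, and it carried H3K27ac, H3K4me1, H3K4me2 and MED1 in IKDN cells only. The element at 60.1 kb shows the opposite case, with 8 factor lists in each genotype. Among the IKDN lists at both elements, E2A, IRF4 and PAX5 share an antibody label, as do ETS1 and LHX2. TEAD1 had 27 peaks in IKDN and 22 in WT cells, of which 14 of the IKDN peaks overlapped a WT peak, where 39.1% of all IKDN TEAD1 peaks did. The TEAD1 peak at 20.1 kb was 45th of 47735 in the IKDN list and 402nd of 33520 in the WT list. In WT cells a TEAD1 peak at 134.9 kb stood higher still, 160th in its list. MED1 had 20 peaks and 24.4 kb in IKDN cells and 7 peaks and 6.22 kb in WT cells.

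Across the 9 genes and the 8 narrow targets (7 factors and MED1), 68 gene and target pairs could be compared. A pair was called when the peak number differed by at least 1.5 times and by at least 2 peaks. 12 pairs were called higher in IKDN and 2 lower. Counts below are over the genes with a peak of the target, as are the shares over all genes. The higher ones were E2A at Ptk2 (1 of 4 genes with a peak on complete chromosomes, against 5.15% of all genes, with 24.5% lower), EBF1 at Bcar1 (1 of 6, against 15.8%, with 3.82% lower), PAX5 at Bcar1, Cav1 and Fermt2 (3 of 8, against 14.9%, with 3.95% lower), and IRF4 at Vasp (1 of 7, against 21.4%, with 2.81% lower). ETS1 was called higher at Ptk2, Ptk2b, Vasp and Nedd9 (4 of 6, against 18.7%, with 3.06% lower), with 17 peaks in IKDN and 8 in WT cells at Nedd9. MED1 was called higher at Ptk2b and Nedd9 (2 of 6, against 21.8%, with 2.25% lower). TEAD1 was the one factor with lower calls, at Bcar1 and Fermt2 (2 of 8, against 7.88%), and had no higher one, where 24.3% of all genes were called higher. Aiolos was called at none of 3, where 5.01% of all genes were called higher and 9.04% lower. The EBF1 call at Bcar1 counts the peaks in or beside Cfdp1 given above. With the longer list of each pair reduced to the length of the shorter, the calls came to 5 higher and 4 lower. The share of all genes called at equal length is not given here, so nothing is read from these counts about the genes. The part of list length in the calls was not tested.

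**Figure D4:**
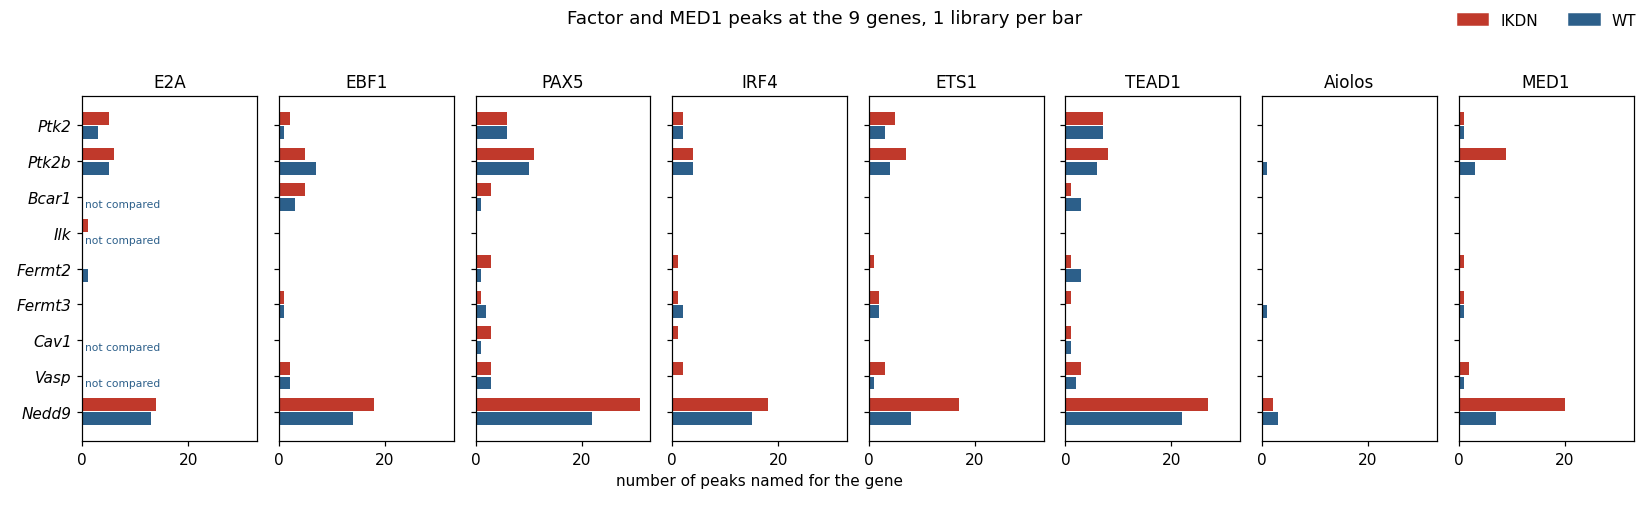
Number of peaks named for each gene in the 8 narrow lists, IKDN red above WT blue, 1 library per bar. Nedd9 leads every panel, with 27 IKDN and 22 WT TEAD1 peaks, and TEAD1 is lower in IKDN at Bcar1 and Fermt2 (1 peak against 3 at each).

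LHX2 peaks of IKDN cells and Ikaros peaks of WT cells met at these genes. Of 42 LHX2 peaks, 24 (57.1%) overlapped a WT Ikaros peak, against 37.2% of all 26634 LHX2 peaks. Of 39 Ikaros peaks, 24 (61.5%) were overlapped by LHX2, against 23.3% of all 42641. Among the LHX2 peaks these were 15 of 27 at Nedd9, 6 of 8 at Ptk2b, 1 of 2 at Ptk2 and 1 of 1 at Vasp, with the remaining overlap elsewhere. TEAD1 peaks lay under H3K27ac at 37 of 49 in IKDN cells (75.5%, against 44.2% of the whole list) and at 20 of 44 in WT cells (45.5%, against 31.7%). Nedd9 alone gave 23 of 27 in IKDN and 14 of 22 in WT cells. Ptk2 stood lower, with 2 of 7 in IKDN and 1 of 7 in WT cells. Peaks of 1 gene share their locus and are not independent, so these shares are descriptions.

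A list of 45 partners, substrates and regulators of the 9 proteins was set beside them. H3K27ac was called higher at 14 of its 44 genes with a peak and lower at 5, where 21.9% and 16.8% of all genes were, with a median difference of 997.5 bp against 119 bp over all genes. H3K36me3 was called higher at 14 of 38 and lower at 1, where 30.4% and 10.1% of all genes were, with a median of 3845.5 bp against 1157 bp. H3K4me1 was called higher at 10 and lower at 7 of 44 (against 21.6% and 20%), H3K4me2 at 9 and 6 of 44 (against 15.1% and 12.9%) and H3K4me3 at 3 and 5 of 44 (against 5.14% and 10.9%). H3K27me3 was called higher at 8 and lower at 7 of 29 (against 29.6% and 33.3%), and RNAPII at 12 and 15 of 43 (against 27.2% and 24.8%). Among called genes, the largest H3K27ac gains were at Vcl (vinculin, 14.2 kb in IKDN and 5.21 kb in WT cells), Asap1 (an Arf regulator that binds the product of Ptk2, 15.8 and 7.10 kb) and Dock1 (the Rac activator downstream of p130Cas, 7.41 and 0.5 kb). Among called genes, the largest losses were at Evl (a relative of Vasp, 20.9 and 31.9 kb), Sos1 (a Ras activator, 4.04 and 12.5 kb) and Parvg (the parvin of blood cells, 11.2 and 18.0 kb). Among called genes, H3K27me3 gained most at Asap1 (107.4 kb in IKDN and 46.1 kb in WT cells), Tns1 (a tensin, 58.3 and 15.1 kb) and Enah (a relative of Vasp, 63.0 and 36.2 kb). Its largest called losses were at Parva (the Ilk-binding alpha parvin, 3.70 and 33.5 kb), Efs (a Cas scaffold, 2.98 and 9.43 kb) and Src (4.11 and 10.4 kb). Asap1 thus stood among the largest called gains of both marks.

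The genes whose covered lengths were most like each of the 9 were sought over the 30 lists complete on every chromosome, among 16439 genes with a peak in at least 10 of them. The lists differ in peak width, so any broadly marked gene shares part of this order. Spearman's rho was 0.985 between Ptk2b and Cerk and 0.981 between Ptk2b and Prkcb. Nedd9 was most like Prkca (0.983) and Tgfb3 (0.981), Vasp like Zbtb2 (0.979) and Ppp6r3 (0.978), and Fermt3 like Vps18 (0.969) and Srp14 (0.966). Ptk2 was most like Zcchc24 (0.927) and Slc6a9 (0.925), Fermt2 like Wtip (0.929) and Marf1 (0.894), Cav1 like D030025P21Rik (0.940) and Elavl4 (0.912), and Bcar1 like Fzd8 (0.882) and Nbl1 (0.881). Ilk had peaks in too few lists.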

How the data were processed

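Of the 35 libraries, 33 have a deposited peak list and the 2 inputs have none. Tools named in the submitters' processing notes are HOMER, STAR, BWA and bcl2fastq (version 1.8.3), and both mm9 and mm10 are given as builds. Per the file headers, each list gives a peak's position, its score as the authors deposited it, its distance to the nearest TSS and the gene of that TSS. The score's scale is not stated, so scores only ranked peaks within a list. Of the TSSs implied by the distances, 98.9% lay within 1000 bp of their gene on GRCm38, and 94.8% of peaks had a RefSeq symbol. A chromosome counted as incomplete in a list whose last peak lay over 10 Mb before the last of all lists.

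Peaks were selected by gene name. Covered length (broad targets) or peak number (narrow targets) was compared between IKDN and WT by the stated thresholds, and overlaps needed 1 bp. Elements were factor peaks within 200 bp of each other. Python 3.11.15, pandas 2.3.3, numpy 2.4.6, scipy 1.17.1 and matplotlib 3.10.9 were used, and the calling was tested on simulated data. All 9 genes are named. Pathway genes are named by the 3 largest gains and losses called for H3K27ac and for H3K27me3, and similar genes by the 2 highest rank correlations. The 9 genes and all lists were chosen with earlier results of these data known. The marker lists for endothelial, T cell, myeloid, and megakaryocyte and erythroid cells had H3K27ac in IKDN and WT cells at 5 and 4, 3 and 3, 5 and 4, and 2 and 1 of 6 genes each.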

Additional observations from a re-analysis of the deposited data

How the results depend on the processing

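16 counts of calls were recomputed under 5 alternatives, and 50 of the 80 values stayed within 1.5 times. The shares of all genes called under these alternatives are not given, so the counts show only how far the calls move. Requiring 2 times (and 2 kb or 3 peaks) gave 1 lower for H3K27ac, 1 higher for H3K4me1, 1 higher for H3K4me2, 0 lower for H3K36me3, 1 higher for H3K27me3, and 3 higher and 0 lower pairs for the narrow targets. The top-scored 50% of each list gave 2 higher and 1 lower for H3K27ac, 1 higher for H3K4me1, 1 higher and 2 lower for H3K4me3, and 1 lower for RNAPII. Gene bodies with 10 kb flanks gave 3 higher and 1 lower for H3K27ac, 1 higher for H3K4me1, 1 lower for H3K4me2, 1 higher for H3K4me3, 0 lower for H3K36me3 and 1 higher for RNAPII. Peak number in place of covered length gave 2 higher and 0 lower for H3K27ac, 1 higher for H3K4me1, 1 higher for H3K4me2, 0 lower for H3K36me3, and 1 higher and 2 lower for H3K27me3. Covered length in place of peak number gave 26 higher pairs, and equal peak numbers 5 higher and 4 lower pairs. The cause was not tested, apart from the names of neighbouring genes at Ilk, Bcar1 and Fermt3. No paired analysis was possible because the labels give no replicate numbers and each genotype and target has 1 library. Depth is not given in the lists, so a missing peak says only that none was called.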

Other observations

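Just past the 3′ end of Fermt2 lies a region that was chosen after its values were seen. Its peaks bear the name of the neighbour Gnpnat1, so they are in none of the counts by name. In IKDN cells an H3K27ac peak of 7.04 kb in the top 9.996% of its list and an H3K4me1 peak in the top 1.65% lay there, and 2 sites at about 73 and 77 kb from the Fermt2 start each held ETS1, IRF4, LHX2, LMO2, MED1 and RNAPII, the first also Aiolos and the second also E2A, EBF1, TEAD1 and PAX5 (top 7.53%). In WT cells no H3K27ac peak was called there, and H3K4me1 covered 0.798 kb, H3K4me2 0.628 kb and H3K27me3 0.5 kb, beside 1 Ikaros peak (top 47.4%) and 1 PAX5 peak (top 78.8%) at the second site. With this region, H3K27ac over Fermt2 and 10 kb on each side came to 9.19 kb in IKDN and 1.94 kb in WT cells.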
